A study of Cricetiscus sungorus with 24 samples.

Results

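Steroid hormone receptors, the 11-beta hydroxysteroid dehydrogenases and genes known to respond to androgen in the mouse kidney were examined in kidneys of Djungarian (Siberian) hamsters. The list held 9 genes, chosen by symbol: the receptors Esr1, Nr3c1 and Nr3c2, the dehydrogenases Hsd11b1 and Hsd11b2, the receptor co-chaperone Fkbp5, and Kap, Odc1 and Gusb. Experiment 1 listed 5 of them among 9681 genes, and experiment 2 listed 8 among 15842 genes. Kap was not analysed here, and Esr1, Hsd11b1 and Fkbp5 were analysed in experiment 2 alone. All 5 listed members of experiment 1 and 6 of the 8 of experiment 2 passed the filter on low counts. The 2 below it, Esr1 and Fkbp5, are described by their counts.

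Experiment 1 held males in 3 groups of 4: LP (16 h of light and 8 h of dark per day), and SP12wk and SP28wk (8 h of light and 16 h of dark) after 12 and 28 weeks. Experiment 2 held adult females, all kept in short photoperiod for 8 weeks and then injected daily for 3 days with vehicle (SAL, n = 6) or with 18 µg of prolactin (PRL, n = 6). The animals carried no transgene that the labels name, and no strain or age in weeks is given in the sources used here. The RNA came from kidney tissue with its cell types mixed, from the part of each frozen kidney kept after the other was sectioned, so fewer cells of a type and less RNA per cell cannot be told apart in any value below.

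Steroid receptors are transcription factors that are held by heat shock protein complexes until a hormone binds them. In the kidney, aldosterone acts on the mineralocorticoid receptor (Nr3c2) of the distal nephron and collecting duct, where Hsd11b2 inactivates cortisol and corticosterone that would otherwise occupy it. Hsd11b1 mainly regenerates the active glucocorticoid, and the glucocorticoid receptor (Nr3c1) is made in most cell types. In mice, androgen raises kidney Odc1, the rate-limiting enzyme of polyamine synthesis, and Gusb, the lysosomal beta-glucuronidase.

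Reads were nanopore cDNA reads aligned to a mouse reference, and each gene is given by its transcript with the highest total. Levels are in CPM, each count scaled to its library's total over those transcripts. Library totals ran from 15687 to 57585 counts in experiment 1 and from 174053 to 756523 in experiment 2, so 1 count was worth 17.4 to 63.7 CPM and 1.32 to 5.75 CPM. The limit that a count of 0 allows, 3 counts, was 52.1 to 191 CPM and 3.97 to 17.2 CPM. Of 12 proximal tubule markers 11 were analysed, of which 9, 11 and 10 had a count in LP, SP12wk and SP28wk and 11 in both SAL and PRL. Slc22a8 and Slc13a3 were at 0 in LP and Slc5a12 in SP28wk, while Lrp2, the endocytic receptor megalin, had 85, 105 and 129 counts in the males and 981 and 1161 in SAL and PRL. Of 14 adrenal gland markers, 4 were analysed in experiment 2, at a summed 138 ± 19.9 CPM in SAL and 116 ± 19.5 in PRL. Fdx1, which many tissues make, had 271 counts in SAL and 241 in PRL, Hsd3b1 had 22 and 23, Cyp11a1 had 5 and 8, and Cyp21a1 had 3 and 1. Summed immune cell markers ran from 57.6 to 137 CPM in SAL and from 55.4 to 149 in PRL. Xist had 39 counts in SAL and 53 in PRL, and Ddx3y had 1, 1 and 3 in LP, SP12wk and SP28wk, the males of experiment 1, while the Y-linked Eif2s3y had 1 count in SAL.

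Prolactin treatment was compared with vehicle to ask whether any of these genes moved with the hormone. No member was called at an adjusted p under 0.05 by edgeR's quasi-likelihood test, and 0% of the 10696 genes tested were called. At an unadjusted p under 0.05 the test gave 0 of the 6 members and 522 genes in all, 4.88% of those tested. DESeq2 also called 0 genes, with 347 (3.24%) at an unadjusted p under 0.05. No member's PRL and SAL libraries were without overlap, against 0.14% of all genes tested. The median log2 fold change was 0.04 for the 6 members and 0.03 for all genes. The adjusted p of each member was 0.998.

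Nr3c1, the glucocorticoid receptor, had 73 counts in SAL and 57 in PRL. Its CPM had a lowest, median and highest value of 21.6, 32.5 and 51.2 in SAL and 22.7, 23.2 and 27.7 in PRL. The PRL libraries therefore sat in a narrow band at the lower end of the SAL range, with 33.9 ± 11.5 CPM in SAL and 24.2 ± 1.93 in PRL (SD, n = 6 each). The log2 fold change, PRL against SAL, was -0.54 with a 95% interval from -1.16 to 0.08 (edgeR). The two-sided exact permutation test of the mean CPM gave p = 0.0649, where the smallest p that 6 against 6 allows is 0.00216. Summed proximal tubule markers were 1897 to 3508 CPM in SAL and 1997 to 4173 in PRL, and across the 12 libraries they had a Pearson r of -0.68 with Nr3c1. The r of those markers was -0.58 with Nr3c2, -0.61 with Gusb and -0.03 with Odc1. The part of those cells in the Nr3c1 values was not tested.

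Nr3c2, the mineralocorticoid receptor, had 48 counts in SAL and 46 in PRL. Its lowest, median and highest CPM were 9.13, 21.1 and 44.8 in SAL and 9.25, 23.7 and 35.6 in PRL. The 2 groups covered nearly the same range, with means of 23.0 ± 13.6 and 24.2 ± 10.2 CPM. The log2 fold change was -0.17 with an interval from -0.95 to 0.62, opposite in sign to the difference of the mean CPM, and the exact permutation p was 0.872.

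Hsd11b2, which protects the mineralocorticoid receptor from glucocorticoid, had 83 counts in SAL and 127 in PRL. Its CPM ran from 22.4 to 48.7 around a median of 39.7 in SAL, and from 13.8 to 86.2 around 53.2 in PRL. Both the lowest and the highest of the 12 libraries were in PRL, replicates 4 and 5. The means were 38.5 ± 9.75 and 52.0 ± 24.8 CPM, with a log2 fold change of 0.39 (interval -0.21 to 0.98) and an exact permutation p of 0.247. Collecting duct markers, summed, had a median of 236 CPM in SAL and 337 in PRL, with ranges of 156 to 297 and 202 to 364. Across the 12 libraries their Pearson r with Hsd11b2 was 0.27, while that of the proximal tubule markers was 0.61. The part of either cell type in the Hsd11b2 values was not tested.

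Hsd11b1, the enzyme of the opposite reaction, had 7 counts in SAL and 14 in PRL. By replicate these were 1, 3, 2, 0, 1 and 0 counts in SAL and 2, 5, 0, 1, 4 and 2 in PRL. Libraries without a count were found in both groups, and the highest level was 23.0 CPM in PRL replicate 5, from 4 counts. The means were 3.78 ± 3.88 and 7.20 ± 8.06 CPM, the log2 fold change was 0.77 (interval -0.80 to 2.34), and the exact permutation p was 0.444. Leaving out 1 library gave 0.39, without PRL replicate 5, to 1.20, without SAL replicate 2, and it was 0.41 without SAL replicate 4. With the transcripts of the gene summed it was 0.38, and the next transcript, XM_006497228.3, had 8 counts in SAL and 11 in PRL.

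The balance of the dehydrogenases was examined as the log2 ratio of Hsd11b1 to Hsd11b2 within each library, with 0.5 counts added at the median library total. It ran from -4.58 in SAL replicate 4 to -1.84 in SAL replicate 3, and from -4.80 in PRL replicate 3 to -1.33 in PRL replicate 4. The lowest ratio of each group came from a library with 0 Hsd11b1 counts, so it depended on the added 0.5 counts. PRL replicate 4 had 1 count of Hsd11b1 and 3 of Hsd11b2. The mean ratio was -3.28 ± 1.02 in SAL and -2.91 ± 1.22 in PRL. The difference of 0.37 was smaller than either SD, with an exact permutation p of 0.571. The ratio is set side by side between libraries only, since it takes no account of transcript length.

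Odc1 had 63 counts in SAL and 83 in PRL. Its lowest, median and highest CPM were 13.5, 35.8 and 41.1 in SAL and 28.5, 32.6 and 63.2 in PRL. The PRL median was below the SAL median while the PRL mean was above it, at 39.3 ± 13.5 against 30.9 ± 10.6 CPM. A log2 fold change of 0.24 was fitted (interval -0.37 to 0.85), and the exact permutation p was 0.279. The fold change was 0.07 without SAL replicate 1, the lowest library, and 0.13 to 0.16 without SAL replicate 4 or PRL replicate 3 or 5. Odc1 had a second transcript with identical counts in every library of experiment 2.

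Gusb had 36 counts in SAL and 27 in PRL, on a transcript listed as a non-coding model of the gene (XR_377102.2). The next transcript, XM_011240853.2, had 33 and 22. Of the others, NM_010368.2 had 7 and 8, NM_001357026.1 had 4 and 6, NM_001357025.1 had 2 and 3, and NM_001357027.1 had 2 and 1. For the transcript used, the lowest, median and highest CPM were 9.13, 15.5 and 30.6 in SAL and 0, 11.3 and 19.8 in PRL. The library at 0 was PRL replicate 5, the shallowest of the experiment and the one with the highest Odc1, Hsd11b1 and Hsd11b2, and the groups overlapped between 9.13 and 19.8 CPM. A log2 fold change of -0.57 was fitted (interval -1.45 to 0.31), and the exact permutation p was 0.284.

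Esr1, the oestrogen receptor alpha, had 1 count in SAL, in replicate 4, and 2 in PRL, both in replicate 2. Fkbp5, a co-chaperone that glucocorticoid induces in many tissues, had 0 counts in SAL and 1 each in PRL replicates 1 and 2. Neither gene could be compared at this depth, because 3 counts were 5.64 to 13.7 CPM in the SAL libraries.

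**Figure D1:**
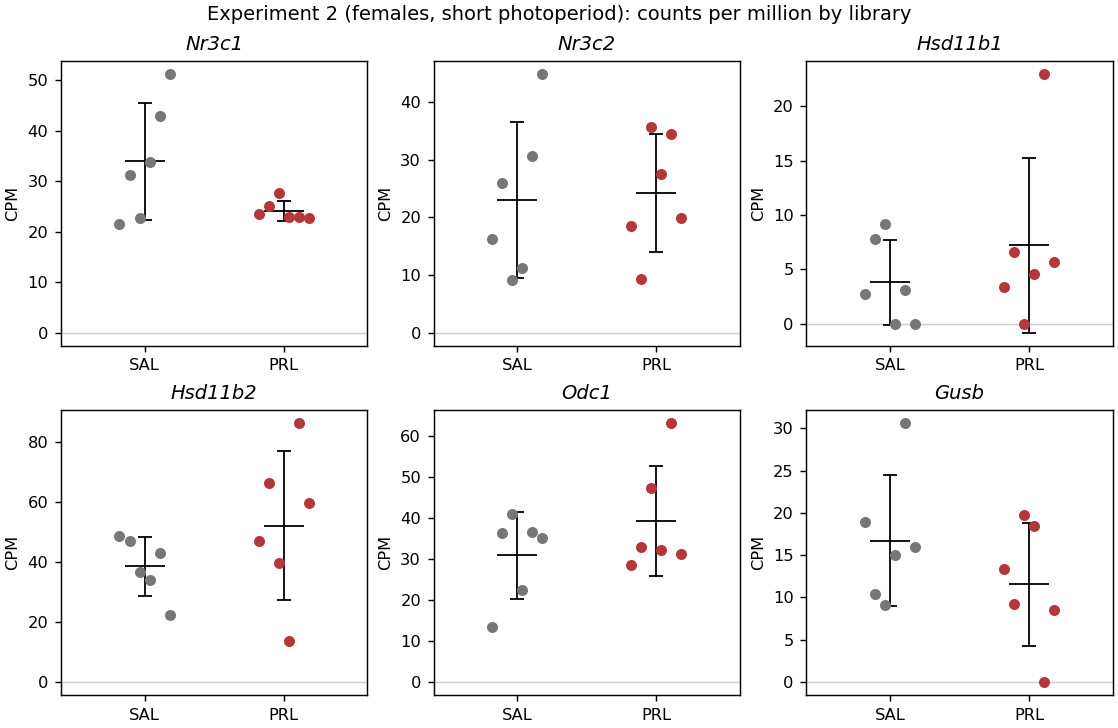
CPM of the 6 tested members in the 12 libraries of experiment 2, with 1 point per library, a horizontal line at the mean and bars of 1 SD (n = 6 per group). The PRL and SAL points overlap in all 6 panels, and the PRL points of Nr3c1 lie between 22.7 and 27.7 CPM.

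Experiment 1 compared 12 weeks of short photoperiod with long photoperiod, and then 28 weeks, when hamsters become refractory to short days, with both. No member was called in any of the 4 comparisons by edgeR. Of the 5086 genes tested, 0.0197% were called when SP12wk was set against LP, and 0.138% when SP28wk was set against SP12wk. For SP28wk and LP the share was 0.216%, and for LP together with SP28wk against SP12wk it was 0.0393%. No member reached an unadjusted p under 0.05, against 7.27%, 6.1%, 8.61% and 6.76% of all genes tested. The lowest adjusted p of a member was 0.834, 0.979, 0.641 and 0.911 in that order. No member's groups were without overlap, against 2.67%, 3.38%, 3.3% and 0.492% of genes tested. The median log2 fold change of the 5 members was -0.24, -0.37, 0.11 and 0.06, beside 0.00, 0.16, 0.18 and 0.05 for all genes. These comparisons share libraries with each other.

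Nr3c1 had 16, 11 and 11 counts in LP, SP12wk and SP28wk. The LP replicates stood at 188, 393, 0 and 194 CPM, the SP12wk replicates at 0, 191, 201 and 113, and the SP28wk replicates at 119, 83.0, 85.7 and 52.1. The group means, 194 ± 160, 126 ± 92.9 and 84.8 ± 27.2 CPM (SD, n = 4), were in the order LP, SP12wk, SP28wk. No neighbours in that order differed beyond their spread, as both LP and SP12wk had a library at 0. The log2 fold change of SP28wk against LP was -0.87 with an interval from -2.28 to 0.54, and the exact permutation p was 0.257. The fold change was -0.55 without LP replicate 2 and -1.32 without LP replicate 3. With 4 against 4 that test can go no lower than 0.0286.

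Nr3c2 rested on 3, 3 and 6 counts. Its replicates stood at 47.0, 56.1, 0 and 38.8 CPM in LP, at 0, 63.7, 50.2 and 28.3 in SP12wk, and at 39.5, 124, 28.6 and 17.4 in SP28wk. Apart from the 3 counts of SP28wk replicate 2, every library had 0 or 1 count of this receptor. The log2 fold change of SP28wk against LP was 0.59 (interval -1.82 to 2.99), and leaving out SP28wk replicate 2 made it -0.12.

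Hsd11b2 had 2, 5 and 3 counts. The LP replicates stood at 0, 0, 55.5 and 38.8 CPM, the SP12wk replicates at 40.9, 63.7, 151 and 0, and the SP28wk replicates at 0, 0, 0 and 52.1. The mean was highest in SP12wk, at 63.8 ± 63.6 CPM against 23.6 ± 28.1 in LP and 13.02 ± 26.05 in SP28wk, and each group held at least 1 library without a count. The exact permutation p for LP with SP28wk against SP12wk was 0.0990, and the log2 fold change was -1.14 (interval -3.30 to 1.03). It was -0.27 without SP12wk replicate 3, which held 3 of the 5 counts of that group, and -2.34 without SP28wk replicate 4, which held all 3 of its group.

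Odc1 had 4, 3 and 7 counts, at 94.1, 56.1, 0 and 38.8 CPM in LP, 40.9, 0, 50.2 and 28.3 in SP12wk and 119, 0, 0 and 69.5 in SP28wk. The SP28wk libraries held both the highest value and 2 of the 4 zeros of this gene. LP and SP28wk had nearly equal means, 47.3 ± 39.0 and 47.0 ± 57.9 CPM, above 29.8 ± 21.8 in SP12wk, and no pair of groups differed beyond that spread.

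Gusb had 5, 4 and 1 counts. Its replicates stood at 0, 168, 55.5 and 38.8 CPM in LP, 40.9, 127, 50.2 and 0 in SP12wk, and 0, 0, 0 and 17.4 in SP28wk. The SP28wk group had the lowest mean, from a single count in all, and a library at 0 was present in every group. SP28wk against LP gave the lowest adjusted p of any member in the experiment, 0.641 by edgeR, with a log2 fold change of -2.17 (interval -5.26 to 0.91) and an exact permutation p of 0.143. The fold change was -1.42 without LP replicate 2 and -3.49 without SP28wk replicate 4. The transcript used for Gusb in experiment 1 (XM_011240853.2) was not the one used in experiment 2.

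**Figure D2:**
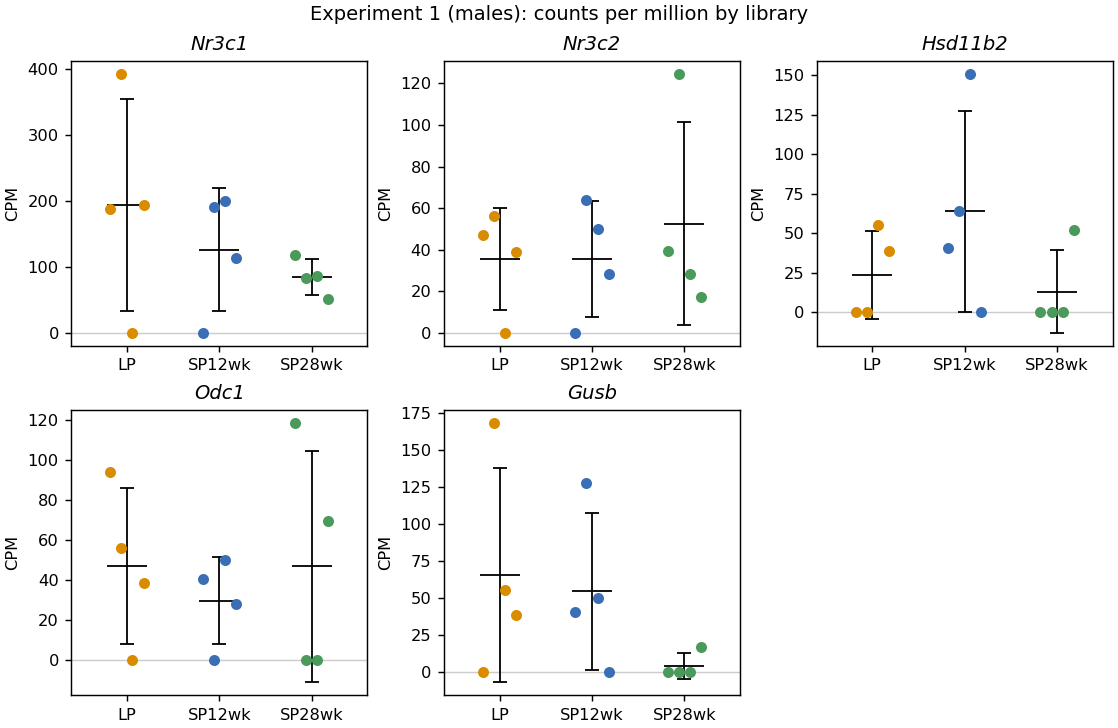
CPM of the 5 listed members in the 12 libraries of experiment 1, with 1 point per library, a horizontal line at the mean and bars of 1 SD (n = 4 per group). Points at 0 occur in at least 1 group of every panel, and the SP28wk points of Gusb lie between 0 and 17.4 CPM.

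**Figure D3:**
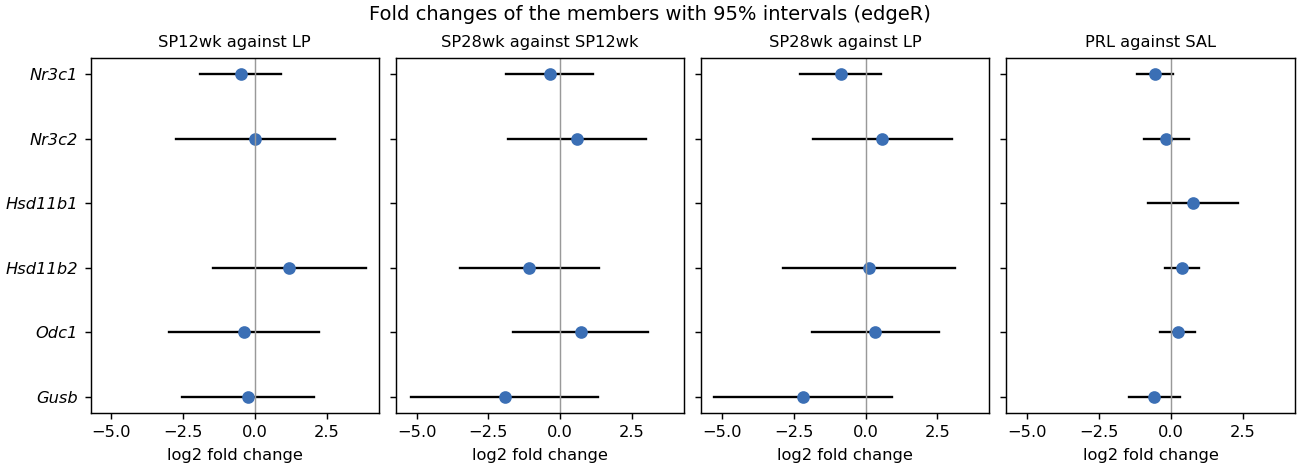
Log2 fold changes of the members by edgeR, with bars for 95% intervals, in 3 comparisons of experiment 1 and in PRL against SAL. Every interval spans 0, and Hsd11b1 has no point in experiment 1.

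The other steroid receptors and the proteins that serve them were described from lists. Of 6 further receptors and membrane steroid-binding proteins, 3 were tested in experiment 2 and 0 were called. Pgrmc2, a haem-binding relative of the progesterone receptor membrane component, had a log2 fold change of -0.31 (SE 0.29).

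All 14 receptor chaperones were tested in experiment 2, and 0 were called. Their median log2 fold change was 0.17, beside 0.03 for all genes. Hsp90ab1, the constitutive heat shock protein 90, stood at 207 ± 62.7 CPM in PRL and 163 ± 51.2 in SAL. Ptges3, the p23 co-chaperone, stood at 63.5 ± 18.9 CPM in PRL and 89.2 ± 27.6 in SAL, with an unadjusted p of 0.0334 and an adjusted p of 0.993 (edgeR). Of 13 coregulators, 0 were called, with a median of -0.14. Crebbp, a histone acetyltransferase, had a log2 fold change of 0.65 (SE 0.36), and Ppargc1a, a coactivator of mitochondrial genes, one of -0.87 (SE 0.40, adjusted p = 0.993 by edgeR).

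Genes known to respond to corticosteroid formed the list with the most low p-values. The lists were chosen with earlier results of these data known, so the counts below describe this list and do not test it. Of 17, 15 were tested in PRL against SAL and 0 were called. At an unadjusted p under 0.05, 5 were higher in PRL and 0 were lower, where 2.54% and 2.34% of all genes were. The fold change was above 0 for 12 of the 15, and the median was 0.40, beside 0.03 for all genes. Leaving out 1 library at a time gave 2 to 6 genes at an unadjusted p under 0.05, all fits calling 0 of the list. The number was 2 without SAL replicate 2, and 3 without SAL replicate 6 or without PRL replicate 1, 2, 5 or 6. DESeq2 gave 3 at an unadjusted p under 0.05 and called 0. Among summed tissue and cell type markers, described without a test, some medians were higher in PRL. Adipose tissue markers had a median of 173 CPM in SAL (135 to 419) and 310 in PRL (186 to 434). The collecting duct markers, which include Scnn1b and Scnn1g of this list, had 236 and 337. Proximal tubule markers had 2455 and 2985, and thick limb and distal tubule markers 1063 and 1100. Lower medians in PRL were found for glomerulus (42.5 and 37.6), adrenal gland (137 and 120), blood (13059 and 12266) and immune cells (105 and 91.4). The part of any of these in the list's values was not tested.

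Dusp1, a phosphatase that inactivates MAP kinases and an immediate early gene, had the smallest p of the list. Its lowest, median and highest CPM were 0, 6.82 and 10.8 in SAL and 7.93, 17.1 and 40.2 in PRL. Of the 6 PRL libraries, 4 were above every SAL library. The log2 fold change was 1.34 (interval 0.28 to 2.40), with an unadjusted p of 0.0116 and an adjusted p of 0.688 (edgeR), and an exact permutation p of 0.0130. Cebpd, a transcription factor with 10 counts in all, had the smallest p among the genes below 0, at a log2 fold change of -1.20 (interval -3.35 to 0.95).

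Sgk1, the kinase through which aldosterone and glucocorticoid raise sodium channel activity, is named here after its values were seen, as are Tsc22d3, Mt2 and the sodium channel subunits. Sgk1 stood at a lowest, median and highest of 36.4, 89.3 and 106 CPM in SAL and 87.4, 131 and 154 in PRL. All but 1 PRL library, replicate 4, were above every SAL library. The means were 83.0 ± 25.2 and 129 ± 24.4 CPM, with a log2 fold change of 0.58 (interval 0.09 to 1.07), an exact permutation p of 0.00866 and an adjusted p of 0.882 (edgeR). In the males Sgk1 stood at 180 ± 104, 123 ± 44.8 and 121 ± 56.1 CPM in LP, SP12wk and SP28wk. Its adjusted p was 0.913 for SP12wk against LP, 0.980 for SP28wk against SP12wk and 0.956 for SP28wk against LP (edgeR).

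Tsc22d3, the glucocorticoid-induced leucine zipper, ran from 35.2 to 100.5 CPM in SAL and from 70.9 to 201 in PRL. Its log2 fold change was 0.59 (interval 0.07 to 1.10), with an adjusted p of 0.934 (edgeR) and an exact permutation p of 0.0628. Mt2, a metallothionein, had a log2 fold change of 0.89 (interval 0.08 to 1.70), an adjusted p of 0.979 (edgeR) and an exact permutation p of 0.158. Scnn1a, the alpha subunit of the epithelial sodium channel, had 16 counts in all and a log2 fold change of 1.66 (interval -0.19 to 3.52), with an exact permutation p of 0.156. The channel's gamma subunit Scnn1g had a log2 fold change of 0.00 on 30 counts, and its beta subunit Scnn1b was below the filter with 7.

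**Figure D4:**
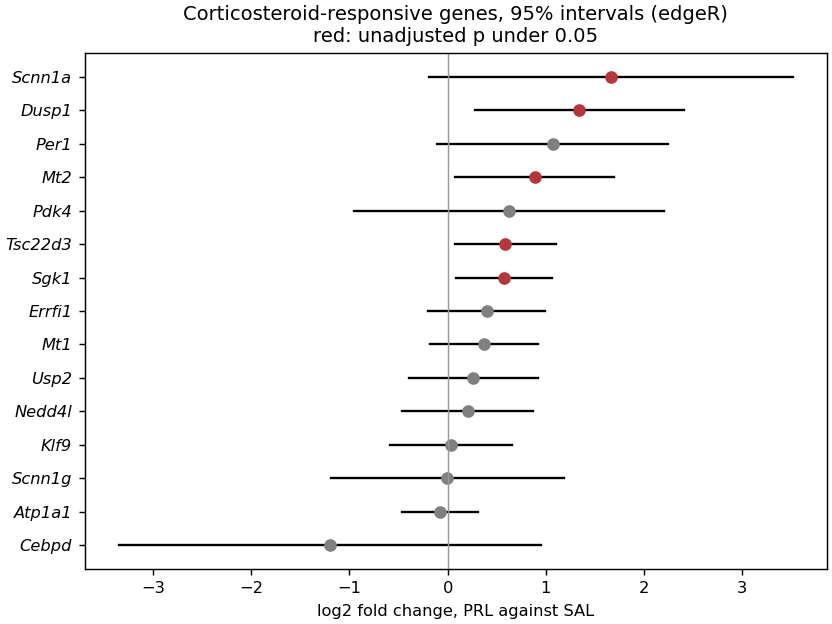
Log2 fold changes, PRL against SAL, of the 15 tested corticosteroid-responsive genes by edgeR, with bars for 95% intervals and red points for an unadjusted p under 0.05. The red points are the 5 genes Scnn1a, Dusp1, Mt2, Tsc22d3 and Sgk1, all above 0, and none of the 15 genes passed the adjusted threshold.

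In experiment 1 the same list had 10 tested genes and 0 called in every comparison. At an unadjusted p under 0.05, 1 gene was higher and 2 were lower in SP12wk than in LP, where 4.58% and 2.69% of all genes were. Against SP12wk, 2 were higher and 0 lower in SP28wk (4.6% and 1.49% of all genes), and against LP, 0 were higher and 1 lower in SP28wk (6.69% and 1.93%). The list's median log2 fold changes in that order were -0.72, 0.36 and 0.32, beside 0.00, 0.16 and 0.18 for all genes. In LP with SP28wk against SP12wk, 2 were higher and 1 lower (3.46% and 3.3% of all genes), with a median of 0.44 beside 0.05.

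The remaining lists concern steroid metabolism and the neighbours of the androgen-responsive members. Of 21 further steroid-metabolising enzymes 10 were tested in experiment 2, 0 were called and the median was -0.02. Srd5a1, a 5-alpha reductase that makes dihydrotestosterone, stood at 3.85 ± 1.17 CPM in PRL and 0.824 ± 1.33 in SAL on 10 counts, with an adjusted p of 0.998 (edgeR). It had a count in 6 PRL and 2 SAL libraries, and 4 PRL libraries were above every SAL library. The exact permutation p was 0.00649, for a gene picked as the smallest edgeR p above 0 in its list. Hsd3b3, a 3-beta hydroxysteroid dehydrogenase, stood at 1.06 ± 2.01 CPM in PRL and 3.65 ± 2.09 in SAL on 12 counts. The 3-beta dehydrogenases are close copies of each other, so the reads of Hsd3b3 may have been split among them.

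Of 10 genes with sex-biased expression in mouse kidney, 7 were tested and 0 were called, with a median of -0.04. Prlr, the prolactin receptor, stood at 7.74 ± 5.83 CPM in PRL and 3.01 ± 4.11 in SAL, with a log2 fold change of 1.42 (SE 0.76) and an unadjusted p of 0.0518 by edgeR. Cyp2e1, a cytochrome P450, stood at 293 ± 142 and 307 ± 103 CPM.

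Odc1 belongs to the polyamine pathway, of which 9 of 10 other genes were tested and 0 were called, with a median of 0.24. Srm, spermidine synthase, stood at 6.93 ± 4.97 CPM in PRL and 1.73 ± 1.41 in SAL, with a log2 fold change of 1.81 (SE 0.78) and an adjusted p of 0.753 (edgeR). Azin1, the antizyme inhibitor that spares Odc1 from degradation, had a log2 fold change of -0.31 (SE 0.29).

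Among lysosomal glycosidases and sulfatases, the class of Gusb, 12 of 18 were tested and 0 were called. Their median was 0.39, while the transcript used for Gusb was at -0.57. Naglu, alpha-N-acetylglucosaminidase, had a log2 fold change of 0.73 (SE 0.52).

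The members did not follow one course across the 12 libraries of experiment 2. Hsd11b2 and Gusb had a Pearson r of -0.59 and a Spearman rho of -0.51, and Nr3c1 and Nr3c2 an r of 0.45 and a rho of 0.42. Odc1 had an r of -0.53 with the library total and Nr3c2 one of -0.51, so the shallower libraries tended to hold the higher levels of these 2 genes. These values are descriptions over libraries that share a flow cell and pool both groups.

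For each member with at least 60 counts, the genes most alike over the 12 libraries were sought by Pearson r among 5000 genes with as many counts. These r are the highest of 5000 over 12 libraries. Such a pick is high by selection, so it does not test a likeness. The closest was Gm22042 for Nr3c1 (r = 0.91), Ddb1 for Nr3c2 (0.93), Lonp2 for Hsd11b2 (0.91), Creld2 for Odc1 (0.94) and Gpc3 for Gusb (0.97). Next came Hoxa3 and Gm22614 for Nr3c1, Pdia4 and Cdv3 for Nr3c2, Slc50a1 and Adsl for Hsd11b2, Dgcr2 and Ywhaq for Odc1, and Mtmr6 and Ik for Gusb, with r from 0.85 to 0.93. After the 2 libraries farthest from the member's median were left out, r was 0.73 for Gm22042, 0.93 for Ddb1, 0.81 for Lonp2, 0.80 for Creld2 and 0.88 for Gpc3. It was 0.46 for Ik, 0.53 for Gm22614, 0.55 for Adsl, 0.63 for Mtmr6, 0.64 for Hoxa3 and 0.69 for Dgcr2. For Slc50a1 it was 0.73, for Ywhaq 0.76, for Cdv3 0.87 and for Pdia4 0.97. The likenesses whose r fell rested in part on those libraries, those of Ik, Gm22614 and Adsl largely.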

How the data were processed

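Kidney RNA of 24 hamsters was sequenced by the authors as nanopore cDNA on 1 flow cell per experiment. The study names the mouse RefSeq genome assembly as its reference for alignment with minimap2, and the submitters' processing notes name minimap2 and Salmon. The deposited values are estimated counts per transcript, unscaled; the labels and the study's methods name different cDNA kits. Reads of another species may align unequally well to different mouse genes, and this was not tested.

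For each gene the transcript with the highest total over the 12 libraries of its experiment was taken, so that a gene whose reads are spread over isoforms can be undercounted. Isoforms can also carry the same counts. In experiment 1, 5 other transcripts of Nr3c1 had counts identical to those of the transcript used. Summed transcripts may therefore hold a read more than once and are not an independent check. Counts were rounded and tested with edgeR 4.0.16 in R 4.3.3 (TMM, quasi-likelihood, 1 model per experiment, no covariate), keeping genes counted in 4 or more of the 12 libraries of experiment 1, or 6 or more in experiment 2. Adjusted p-values are Benjamini-Hochberg over all genes tested, at a threshold of 0.05. Intervals are 95%, with standard errors from the unshrunken coefficients around edgeR's fold change, which is drawn slightly towards 0 in low genes, so that an interval can span 0 at a p just under 0.05. Exact permutation tests (two-sided, every split of the libraries enumerated, numpy 2.4.6) compared mean CPM and, for the dehydrogenases, the mean log2 ratio. Totals are given in the report; floors cover counting error only. The experiments were not compared. The labels number the samples of a group separately, and each is taken as 1 animal.

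The members and the lists were chosen with earlier results of these data known. Genes named are the members, the smallest p in each direction of each list in PRL against SAL, and the 3 most alike genes by r of log2(CPM + 1 count). Sgk1, Tsc22d3, Mt2 and the sodium channel subunits fall outside this rule and were named after their values were seen, as were marker genes. The values of 2 genes that this rule names are not reported here. DESeq2 1.42.0, other filters, other scalings, summed transcripts, the replicate number as a block and leaving out each library were tried. The fit was tested on simulated data, where it recovered most changes in well-counted genes of narrower spread. It recovered few where lower counts and wider spread were allowed, with planted folds that were smaller but overlapped those of the first setting. Nr3c2, Hsd11b2, Odc1 and Gusb in experiment 1, and Hsd11b1 in experiment 2, had fewer counts than any gene changed in those simulated data. A member without a call may therefore still have changed.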

Additional observations from a re-analysis of the deposited data

Results flagged for a closer look

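Of 31 groups of a member's values, 5 held a library far from the others by Dixon's ratio. The chance rate of about 1 in 20 groups is for continuous values and does not hold here, since 4 of the 5 groups had counts in 1 library alone, which sets the ratio by construction. In males, Hsd11b2 stood at 52.1 CPM in SP28wk replicate 4, from 3 counts, and Gusb at 17.4 CPM in the same library, from 1 count, with 0 in the other SP28wk libraries. In females, Esr1 stood at 1.88 CPM in SAL replicate 4 and at 2.64 CPM in PRL replicate 2, with 0 in the other libraries of each group. Hsd11b1 stood at 23.0 CPM in PRL replicate 5, from 4 counts.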

How the results depend on the processing

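No member was called under any alternative. The number of genes called did move, and the cause was not tested except where fewer or more genes or libraries entered. For SP12wk against LP it was 1, and 0 with DESeq2, without TMM, with no filter, with a stricter filter (8 of 12 libraries), with transcripts summed, with the replicate block and with only the groups compared. For SP28wk against SP12wk it was 7, then 2 with DESeq2, 2 with the stricter filter, 0 summed and 22 with only the groups compared. For SP28wk against LP it was 11, then 2, 5 and 0 under the first 3 of these. For LP with SP28wk against SP12wk it was 2, and 0 with DESeq2, either filter and summed transcripts. For PRL against SAL it was 0, and 92 with no filter, 1 summed and 94 with the replicate block. Leaving out 1 library gave 0 to 8, 2 to 8, 8 to 54, 0 to 2 and 0 to 44 genes in the same order.

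Deviations of same-numbered libraries from their group means had r from -0.11 to 0.20 in experiment 1 and from -0.18 to 0.24 in experiment 2. In the same order, 5 and 2 of 12 libraries correlated best with their own number. These values cannot show whether numbers pair animals. The labels state no pairing, so the block was tried as an alternative only.

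Fold changes near 0 turned sign. Nr3c2 in SP12wk against LP was -0.16 without TMM. Hsd11b2 in SP28wk against LP was -0.32 with DESeq2, -0.23 without TMM, -0.17 summed, -0.0041 with the replicate block and -10.6 CPM as a difference of means. Odc1 in SP28wk against LP was -0.24 CPM as a difference of means, and Nr3c1 in LP with SP28wk against SP12wk -0.0198 with DESeq2. Nr3c2 in PRL against SAL was 0.0511 summed and 1.18 CPM as a difference of means. Leaving out 1 library gave, in SP12wk against LP, -0.35 to 0.39 for Nr3c2, -0.75 to 0.17 for Odc1 and -0.87 to 0.50 for Gusb. In SP28wk against LP it gave -0.12 to 0.91 for Nr3c2, -2.36 to 0.53 for Hsd11b2 and -0.19 to 0.84 for Odc1. Nr3c2 ran from -0.13 to 0.90 in SP28wk against SP12wk, from -0.12 to 0.51 in LP with SP28wk against SP12wk and from -0.35 to 0.0949 in PRL against SAL, and Nr3c1 from -0.37 to 0.31 in LP with SP28wk against SP12wk.

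The difference, PRL minus SAL, of the log2 ratio of Hsd11b1 to Hsd11b2 stayed above 0, from 0.06 to 0.75. That difference rests on 7 Hsd11b1 counts in SAL and 14 in PRL. Without TMM the median of all genes moved from 0.00 to -0.17 in SP12wk against LP and from 0.18 to -0.16 in SP28wk against LP. The members of experiment 1 rest on 1 to 16 counts per group, and changes as large as their intervals allow are not excluded.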
